A study of Homo sapiens with 6 samples.

Results

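The chromosome 19 zinc finger genes were taken from the A549 RNA-Seq table as all rows on chromosome 19 whose symbol is ZNF, a number and at most 1 letter. Where a symbol had several transcripts, the most counted one stood for it. Of 249 such symbols, 194 reached a summed count of at least 10 and form the gene group described here, out of 23180 symbols in the table. Among those with the fewest counts, ZNF726 (10.5 counts over the 6 samples) and ZNF493, ZNF577 and ZNF610 (11 counts each) were just inside this limit, while ZNF793 (9 counts), ZNF154 and ZNF724P (7.5 counts each) were just outside. A549 cells are an established line derived from lung adenocarcinoma. The cells were transfected with either a control siRNA (siControl, 3 samples) or siKMT9α#1 (3 samples), an siRNA against N6AMT1, which encodes the catalytic subunit KMT9α of the methyltransferase KMT9. RNA was taken 3 days after transfection with 65 nM siRNA, and all 6 samples were at passage 11 and carried no other treatment. Only 1 siRNA against KMT9α and 1 cell line were sequenced, so responses to the loss of KMT9α and responses to the siRNA sequence cannot be told apart. The labels call the samples biological replicates but do not say that they came from separate cultures, so p-values measure the spread between these samples.

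Chromosome 19 carries the largest collection of C2H2 zinc finger genes in the human genome, arranged in tandem clusters that arose by repeated duplication. Most encode a KRAB box, a short protein interaction domain near the N terminus, followed by an array of zinc fingers that reads DNA. The KRAB box recruits TRIM28, also called KAP1, which brings the histone methyltransferase SETDB1, HP1 proteins and deacetylases, and many members use this complex to silence transposable elements. In the GRCh37 transcript annotation, 156 of the 193 members with a readable coding part had a match to a KRAB A box pattern and 37 had none. The number of C2H2 fingers ranged from 1 (ZNF428) to 31 (ZNF91), with a median of 12 over 192 members, and 161 members held at least 1 copy of the TGEKP linker that joins neighbouring fingers.

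Totals over the transcripts used were 15551780 to 18568634 counts in siControl and 13740098 to 19832394.5 in siKMT9α#1. N6AMT1 had 10.2, 10.8 and 11.5 CPM (counts scaled to library size by TMM) in the siControl samples and 2.87, 3.22 and 3.35 CPM in the siKMT9α#1 samples, so the targeted gene was lower in every sample with the siRNA against it. Of the epithelial markers, EPCAM (3.86 and 0.593 CPM in siControl and siKMT9α#1), KRT8 (1281 and 528 CPM), KRT18 and KRT19 were lower with siKMT9α#1, whereas CDH1 was higher (3.39 and 8.62 CPM), all by edgeR. The surfactant genes SFTPB and SFTPC had at most 2 counts over the 6 samples and CDKN2A was listed at 0. Of the markers of other cell types, DCN, PTPRC, CD3E, PECAM1 and VWF had 0 to 6 counts over all samples and COL3A1 had 13.5, while COL1A1 (4.27 and 2.80 CPM) and CD14 (3.55 and 1.92 CPM) were detected at low levels in siControl and siKMT9α#1.

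Most chromosome 19 zinc finger genes were weakly expressed, and a few stood far above the rest. Per length, the 194 members had a median level of 1.85 RPKM (CPM per kilobase of transcript), and 133 of them reached 1 RPKM. The members that passed the filter on low counts had a median of 2.66 RPKM, beside 7.96 RPKM over all genes tested. ZNF146, which encodes a protein made almost entirely of zinc fingers without a KRAB box, was the highest at 135 RPKM. It was followed per length by ZNF428 (35.7 RPKM), ZNF274 (25.3 RPKM), ZNF302 (22.6 RPKM) and ZNF787 (22.1 RPKM). By CPM the 8 most abundant members were ZNF146, ZNF507, ZNF302, ZNF274, ZNF526, ZNF317, ZNF260 and ZNF428. The spans of 18 members overlap that of another symbol, ZNF146 with ZNF565 and ZNF428 with SRRM5 among them, and whether the counting used the strand is not stated.

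Summed over the 194 members, the level was 2734 ± 17.3 CPM (SD, n = 3) in siControl and 2535 ± 20.6 CPM (SD, n = 3) in siKMT9α#1. The 3 siControl sums ran from 2718 to 2752 CPM and the 3 siKMT9α#1 sums from 2522 to 2559 CPM, so the groups did not overlap. ZNF146 alone contributed 450 ± 14.9 CPM (SD, n = 3) in siControl and 592 ± 20.3 CPM (SD, n = 3) in siKMT9α#1, and went against the sum. Without ZNF146, the sum was 2284 ± 31.8 CPM (SD, n = 3) and 1943 ± 13.4 CPM (SD, n = 3). In bulk RNA such as this, fewer cells expressing a gene and less RNA per cell cannot be told apart.

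Transcripts of chromosome 19 zinc finger genes were more often lower than higher upon KMT9α knock-down. Of the 194 members, 173 passed the filter on low counts and were tested, and the other 21, with 10.5 to 57.5 counts over the 6 samples, were not. At an adjusted p under 0.05 (edgeR's quasi-likelihood test, Benjamini-Hochberg adjustment over 13877 genes), 83 members were lower and 27 higher, while 63 did not pass. Over all genes tested, 75.6% passed, with 38.5% lower and 37.1% higher. Among the tested members 48.0% were lower and 15.6% higher. The 3 values of 1 group lay entirely above those of the other for 114 of the 173 tested members, 82 of them lower and 32 higher. Over all genes tested this held for 10691 (77.0%), a larger share, with 5474 lower and 5217 higher. Calls with a change of more than 2-fold were 17 lower and 4 higher, against 1436 and 1398 of all 13877 genes tested. Members were thus short of such increases rather than rich in such decreases. Increases of this size were also a smaller share than over all genes in the 2 related sets. They were 12 (with 18 decreases) of 224 tested ZNF genes of other chromosomes, and 48 (with 98 decreases) of 780 other tested chromosome 19 genes. The study's own threshold is P under 1e-08 and an absolute log2 fold change above 0.26. At this threshold, 14 of the 173 tested members were lower and 2 higher, against 10.7% and 13.5% of all genes tested. Both shares were smaller among the members than over all genes. They were also smaller among the 224 tested ZNF genes of other chromosomes, with 17 lower and 16 higher. At the median the tested members had 7.47 CPM and an SE of 0.119, beside 24.8 CPM and 0.077 over all genes tested. Counts at this strict threshold depended on the fit and ran from 6 to 37 lower and from 1 to 9 higher over the alternatives. The direction of the balance did not: over the same alternatives 65 to 93 members were lower and 23 to 29 higher at an adjusted p under 0.05.

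The median log2 fold change of the tested members was -0.23, with quartiles at -0.68 and 0.11, beside a median of -0.01 over all genes tested. The 224 tested ZNF genes of other chromosomes had a median of 0.00, with 77 higher and 78 lower. The 780 tested chromosome 19 genes outside the ZNF group had a median of -0.17, with 219 higher and 357 lower. The other genes of chromosome 19 thus had a median on the same side of 0 as its zinc finger genes, and zinc finger genes elsewhere had a median at 0. These medians are descriptions without a test. The 163 members with a mean of at least 1 CPM had a median of -0.23, and the 150 members with under 10% of their 50-base runs shared with another annotated gene also had -0.23. Scaled by library size alone, the median of all genes moved to -0.12 and that of the members to -0.34, a difference of -0.22 that is close to that with TMM.

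**Figure D1:**
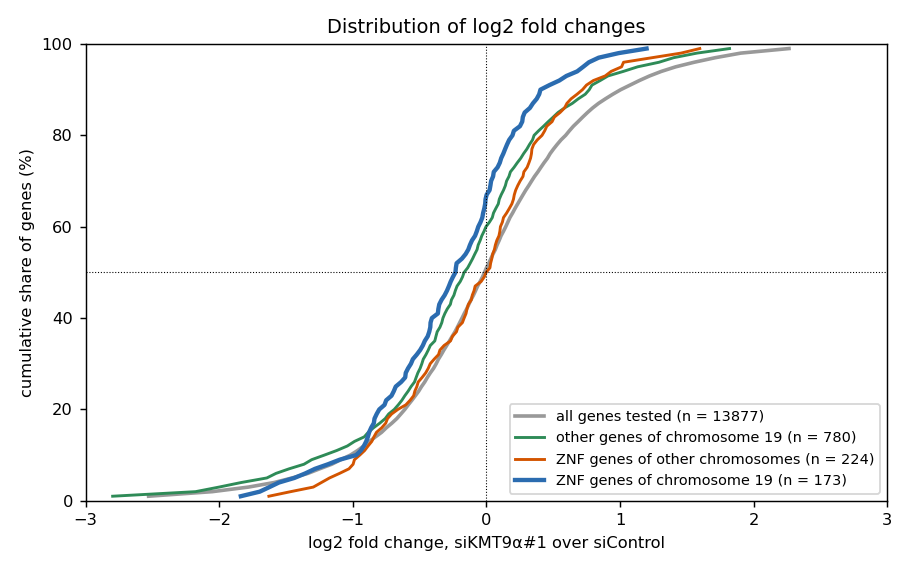
Cumulative share of genes (vertical axis, %) at or under each log2 fold change of siKMT9α#1 over siControl (horizontal axis), drawn from the 1st to the 99th percentile for 173 tested ZNF genes of chromosome 19, 224 ZNF genes of other chromosomes, 780 other genes of chromosome 19 and all 13877 genes tested. The chromosome 19 ZNF curve crosses 50% at -0.23 and lies to the left of the other curves through most of its range.

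Arranged along the chromosome, the 249 symbols fell into 21 clusters when a gap of more than 500 kb between starts opened a new one, and 9 clusters held at least 5 tested members. Clusters are numbered here from the short arm telomere, with hg19 positions. The clusters did not move alike. On the short arm, cluster 4 (8.6 to 9.9 Mb) showed a median log2 fold change of 0.14 with 3 members higher and 3 lower of 11, and cluster 5 (11.6 to 12.7 Mb) a median of 0.04 with 3 higher and 2 lower of 10. Cluster 7 (19.8 to 24.3 Mb), which lies next to the centromere, had a median of -0.42 with 2 higher and 6 lower of 11.

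On the long arm every one of the 6 described clusters had a negative median. Cluster 10 (35.2 to 35.5 Mb) had the lowest, -0.69, and 4 of its 5 members, ZNF302, ZNF181, ZNF599 and ZNF792, were lower. Cluster 14 (44 to 45 Mb) had a median of -0.53, with 14 of 22 members lower and only ZNF576 higher. Cluster 19 (52.1 to 54.1 Mb) had a median of -0.41 with 10 lower and 3 higher of 23. Cluster 21 (57.7 to 59.0 Mb), the largest, had a median of -0.23 with 21 lower and 5 higher of 41. Clusters 11 (36.7 to 38.3 Mb) and 20 (56.0 to 57.2 Mb) were nearer to 0, with medians of -0.11 and -0.02. With a gap of 1 Mb in place of 500 kb, 8 clusters of at least 5 tested members remained.

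Some neighbours within a cluster shared their direction. Since 48.0% of tested members were lower and 15.6% higher, some pairs agree without any link between neighbours. Of 154 pairs of adjacent tested members, 43 were both lower, 8 both higher and 12 opposite, and the remaining 91 had at least 1 member that did not pass. Spearman's rho between the log2 fold changes of adjacent members was 0.26 over these pairs. It is given without a p, since neighbours share libraries and duplicated sequence and each gene enters up to 2 pairs. The longest stretches with 1 sign were 12 tested genes from ZNF841 to ZNF525 in cluster 19, 9 of them called lower, and 12 from ZNF550 to ZNF587 in cluster 21, 10 of them called lower. In cluster 14, all 8 tested genes from ZNF428 to ZNF223 were lower. The longest positive stretch was that of 6 genes from ZNF627 to ZNF443 in cluster 5, with 3 called higher. Of the 173 tested members, 115 had a negative log2 fold change, which by itself favours negative stretches.

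**Figure D2:**
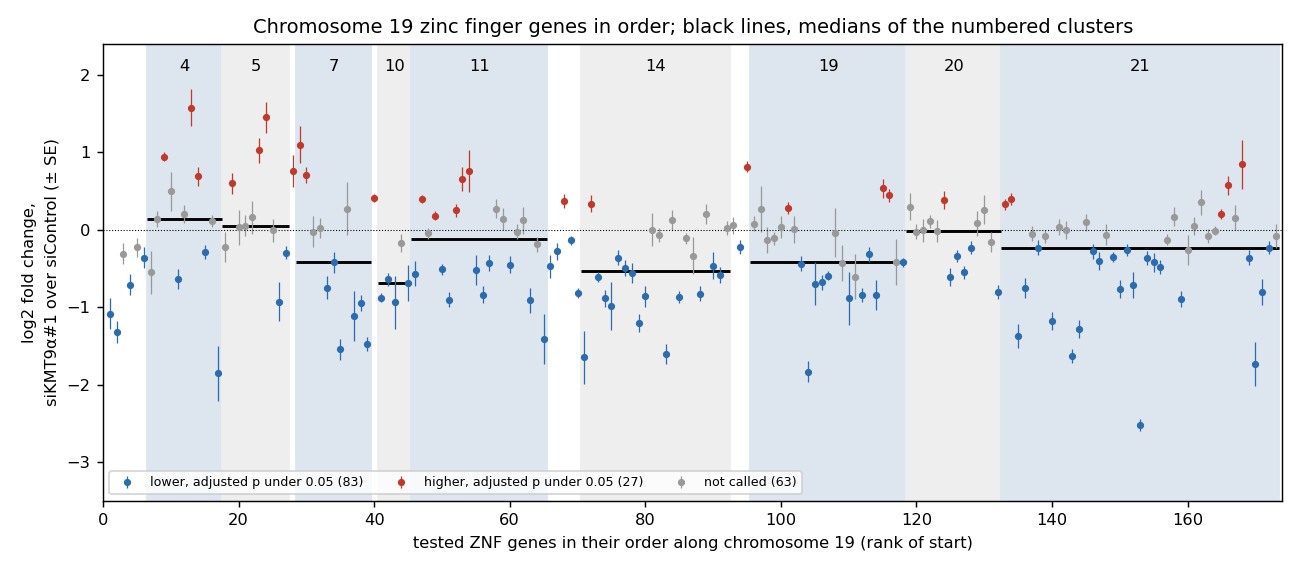
Log2 fold change of siKMT9α#1 over siControl with its standard error (vertical axis) for the 173 tested members in their order along chromosome 19 (horizontal axis, rank of start), coloured by call, with the 9 numbered clusters shaded and their medians as black lines. The medians of clusters 4 and 5 are above 0, and those of clusters 7, 10, 11, 14, 19, 20 and 21 are below it.

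The clusters also differed in how much of their content was expressed. In cluster 7, which contains the primate-expanded ZNF91 family, 20 of 34 symbols had under 10 counts over the 6 samples, and in cluster 5 it was 14 of 27. By contrast, all 23 symbols of cluster 14 and 41 of the 43 of cluster 21 reached 10 counts. The member with the highest CPM in each of the 9 clusters was ZNF317, ZNF791, ZNF254, ZNF302, ZNF146, ZNF428, ZNF331, ZNF787 and ZNF274, in chromosome order. Of these, ZNF791, ZNF254, ZNF302, ZNF428, ZNF331 and ZNF787 were lower, ZNF317 and ZNF146 were higher, and ZNF274 did not pass the test. ZNF254, in cluster 7, had 22.2, 21.2 and 20.8 CPM in siControl and 7.44, 7.56 and 8.0 CPM in siKMT9α#1. Its values were tight within each group and far apart between them, with a log2 fold change of -1.48 (SE 0.09, edgeR adjusted p = 1.26e-11). For ZNF302 the siControl values of 80.3, 74.8 and 74.9 CPM fell to 39.0, 41.0 and 44.9 CPM, a log2 fold change of -0.88 (SE 0.06, edgeR adjusted p = 1.04e-10). ZNF787 had a log2 fold change of -0.34 (SE 0.08, edgeR adjusted p = 6.28e-04), and with offsets for GC content and length it was -0.11 and no longer passed.

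The deepest decrease among all members was that of ZNF776, a KRAB zinc finger gene of cluster 21 on chromosome 19 from 58258164 to 58269527 on the plus strand of hg19. It had 59.6, 63.4 and 57.9 CPM in siControl and 9.83, 9.54 and 11.8 CPM in siKMT9α#1. Every siKMT9α#1 sample was thus far under every siControl sample, and the log2 fold change was -2.52 (SE 0.08, edgeR adjusted p = 1.26e-15). ZNF419, which lies before it in the same cluster, had 24.9, 27.1 and 26.1 CPM in siControl and 7.67, 8.08 and 9.18 CPM in siKMT9α#1, a log2 fold change of -1.63 (SE 0.09, edgeR adjusted p = 3.26e-12). ZNF616 in cluster 19 (chromosome 19, 52617653 to 52643191, minus strand) had 9.03, 9.26 and 8.68 CPM and then 2.38, 2.38 and 2.72 CPM, a log2 fold change of -1.83 (SE 0.13, edgeR adjusted p = 2.35e-10). ZNF225 in cluster 14 had 9.45, 9.05 and 8.34 CPM in siControl and 2.61, 3.07 and 3.09 CPM in siKMT9α#1, with a log2 fold change of -1.60 (SE 0.13, edgeR adjusted p = 1.74e-09). In all 4 genes the groups did not overlap. The other 2 of the 6 largest decreases were at low levels. ZNF846 averaged 1.74 CPM in siControl and 0.517 CPM in siKMT9α#1 (log2 fold change -1.85, SE 0.36), and ZNF132 averaged 1.94 and 0.590 CPM (log2 fold change -1.73, SE 0.28). Of the 50-base runs of ZNF846, 21.1% also occur in another annotated gene, so reads could be split between them.

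Among the members that rose, those with the largest fold changes were mostly weakly expressed. ZNF426, in cluster 4, had 1.17, 0.556 and 1.17 CPM in siControl and 2.49, 3.07 and 3.16 CPM in siKMT9α#1, with a log2 fold change of 1.58 (SE 0.24, edgeR adjusted p = 6.24e-06). ZNF443 and ZNF799, close relatives in cluster 5, had log2 fold changes of 1.45 (SE 0.20) and 1.02 (SE 0.16). Because 36.1% and 34.5% of their 50-base runs are shared with another annotated gene, their separate values are uncertain. ZNF101, the first gene of cluster 7, had a log2 fold change of 1.10 (SE 0.24, edgeR adjusted p = 3.90e-04). The more abundant ZNF317 had 36.7, 40.8 and 37.5 CPM in siControl and 73.4, 77.2 and 70.7 CPM in siKMT9α#1. Its groups were well separated, and the log2 fold change was 0.94 (SE 0.06, edgeR adjusted p = 2.33e-11). ZNF473, which encodes ZFP100, a component of the machinery that processes histone mRNA 3′ ends, had 17.1, 19.3 and 18.5 CPM and then 32.0, 32.6 and 31.8 CPM. Its log2 fold change was 0.81 (SE 0.07, edgeR adjusted p = 3.27e-09), and ZNF317 and ZNF473 were the 2 members that rose past the study's threshold.

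**Figure D3:**
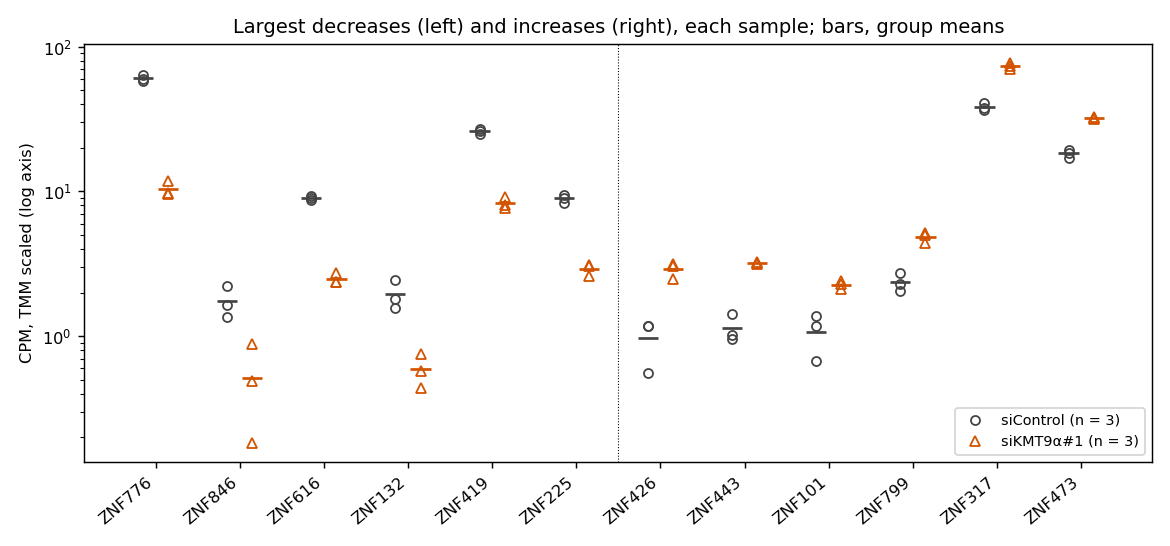
CPM of each sample on a log axis for the 6 members with the largest decreases (left) and the 6 with the largest increases (right) among those with an adjusted p under 0.05, groups that did not overlap and a mean of at least 1 CPM, with siControl as circles, siKMT9α#1 as triangles and group means as bars. ZNF776 drops from 60.3 to 10.4 CPM on average, and ZNF317 climbs from 38.3 to 73.7 CPM.

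Members with a known role were lower, higher or did not pass the test. ZNF91 and ZNF93 are KRAB zinc finger repressors of SVA and LINE-1 retroelements. ZNF93 had 2 counts over all samples and was not among the members. ZNF91 had 1.22, 0.772 and 1.27 CPM in siControl and 0.454, 0.365 and 0.654 CPM in siKMT9α#1, with a log2 fold change of -1.11 (SE 0.33, edgeR adjusted p = 0.00465). With DESeq2 the adjusted p of ZNF91 was 0.0575. ZNF274, which recruits SETDB1 to the 3′ ends of zinc finger genes themselves, had 66.8, 72.7 and 75.5 CPM in siControl and 73.5, 71.1 and 69.3 CPM in siKMT9α#1. The ZNF274 groups overlapped, and the log2 fold change of -0.01 (SE 0.06, edgeR adjusted p = 0.877) did not pass the test.

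ZNF420, known as APAK, a negative regulator of p53, had 9.90, 9.79 and 10.1 CPM in siControl and 5.21, 6.21 and 5.28 CPM in siKMT9α#1, a log2 fold change of -0.84 (SE 0.11, edgeR adjusted p = 1.43e-06). ZNF675, an inhibitor of TRAF6 signalling also called TIZ, had 14.7, 14.4 and 14.3 CPM and then 7.82, 8.08 and 6.88 CPM, a log2 fold change of -0.95 (SE 0.10, edgeR adjusted p = 4.10e-08). For both genes all siKMT9α#1 values were under all siControl values. ZNF331 was lower with a log2 fold change of -0.42 (SE 0.06, edgeR adjusted p = 3.84e-06). ZNF568 had a log2 fold change of -0.52 (SE 0.19, edgeR adjusted p = 0.0186), a call that was lost with adjusted p values of 0.0668, 0.0862 and 0.0572 without siControl replicate 1, siKMT9α#1 replicate 2 or siKMT9α#1 replicate 3, and with an adjusted p of 0.116 by DESeq2. ZNF350, the BRCA1 partner ZBRK1, did not pass with 17.6 ± 0.198 CPM in siControl and 16.3 ± 1.82 CPM in siKMT9α#1 (SD, n = 3). ZNF224, ZNF304, ZNF558 and ZNF653 also did not pass, with log2 fold changes of -0.06, -0.05, 0.14 and -0.22, and ZNF382, with 17 counts in all, was not tested.

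The highly expressed members without a KRAB box included genes of both directions. ZNF146 had 459, 433 and 458 CPM in siControl and 594, 612 and 571 CPM in siKMT9α#1, a log2 fold change of 0.40 (SE 0.05, edgeR adjusted p = 3.98e-07). ZNF507 rose with 0.41 (SE 0.05, edgeR adjusted p = 5.08e-07), from 99.6 ± 5.20 to 132 ± 2.72 CPM (SD, n = 3), and with GC and length offsets its log2 fold change was 0.17 (adjusted p = 0.00191). ZNF526, in contrast, had 70.2, 73.9 and 81.5 CPM in siControl and 43.9, 45.5 and 39.1 CPM in siKMT9α#1, a log2 fold change of -0.82 (SE 0.07, edgeR adjusted p = 1.53e-09). ZNF428 was lower with -0.61 (SE 0.06, edgeR adjusted p = 4.23e-08), or -0.37 with these offsets. ZNF260 had a log2 fold change of 0.18 (SE 0.05, edgeR adjusted p = 0.00454), which was 0.11 and no longer passed with GC and length offsets, and was 0.08 and did not pass with the library size alone.

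The protein features of the members were related to the direction only loosely. The 138 tested members with a KRAB match showed a median log2 fold change of -0.28, with 20 higher and 70 lower, and the 34 without one had a median of -0.04, with 7 higher and 12 lower. ZNF genes of other chromosomes showed the same order at a higher level, with medians of -0.15 for 82 KRAB genes and 0.08 for 136 genes without KRAB. Across the tested members, Spearman's rho of the log2 fold change was -0.02 with the number of fingers (171 members), 0.01 with the GC content of the transcript and 0.06 with its length. At the median, the log2 fold change was -0.29 for members with at most 12 fingers and -0.16 for those with more.

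A sequence feature with a wider difference in medians was a 7-base match to the siRNA. Guide strands of siRNAs can repress transcripts that pair with their seed, bases 2 to 8, in the way a microRNA does, mostly through sites in 3′ UTRs. The seed of the siKMT9α#1 guide is complementary to ACATTCA. This 7-mer occurred 74 times in the coding parts of 55 members, and 28.5% of members with a coding part held it, against 23.9% of tested ZNF genes elsewhere and 11.7% of other tested genes. In 29 members the 7-mer lay at the start of the match to the KRAB A box pattern, and such sites are called KRAB box sites here. A site further into the box, such as that of ZNF543, was counted as elsewhere in the coding part. By this rule the 7-mer had to be read in frame, as codons for threonine and phenylalanine and the first base of the next codon. The pattern also fixed the aspartate codon that followed and allowed valine or leucine after it. In all 29 the codons after the aspartate were those for valine and alanine. The first 6 sites below are shown because they place the same 7 bases in a domain that recurs from gene to gene. The letters are the coding strand of GENCODE transcripts on GRCh37, with the 7-mer in capitals and up to 8 coding bases on either side. The first 6 lie in the KRAB box and the last 4 elsewhere in the coding part. The last 4 come from members that were lower. Sites outside the KRAB box in members that were higher or did not pass, such as ZNF146 and ZNF284, are not shown.
ZNF616: ggcatttgACATTCAaggatgta
ZNF283: ggttggtgACATTCAgggatgtg
ZNF235: aggcagtgACATTCAaggatgtg
ZNF480: gacacttaACATTCAgggacgtg
ZNF761: gtctattgACATTCAgggatgtg
ZNF765: gtctattgACATTCAgggatgtg
ZNF776: acaagaggACATTCAcacttcag
ZNF419: cagttcaaACATTCAgcaacacc
ZNF225: gagagacaACATTCAaatgtgaa
ZNF675: acataaaaACATTCAtactggag

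The KRAB box 7-mer of ZNF616 lies at chr19:52627287-52627293 on the minus strand, in exon 3 of the 4 exons of its annotated transcript, and that of ZNF761 at chr19:53952774-53952780 on the plus strand, in exon 4 of 6. ZNF616 holds 2 more copies in its finger region. The same 23 bases around the KRAB box 7-mer occur in 5 members of cluster 19, which differed in direction. ZNF525 and ZNF845 were lower, with log2 fold changes of -0.84 (SE 0.19) and -0.32 (SE 0.10), and ZNF813, at -0.41 (SE 0.30), did not pass. ZNF761 and ZNF765 were higher, with log2 fold changes of 0.44 (SE 0.08, edgeR adjusted p = 5.68e-05) and 0.54 (SE 0.12, edgeR adjusted p = 7.04e-04). ZNF761 had 14.7, 15.5 and 15.2 CPM in siControl and 19.8, 19.5 and 22.1 CPM in siKMT9α#1, without overlap. ZNF480 had 45, 45.3 and 42.6 CPM and then 29.7, 29.4 and 29.2 CPM, a log2 fold change of -0.59 (SE 0.06, edgeR adjusted p = 3.35e-08).

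The 48 tested members with the 7-mer in the coding part showed a median log2 fold change of -0.48, with 32 lower and 4 higher, and the 124 without it had -0.08, with 50 lower and 23 higher. Among members with a KRAB match, those with the 7-mer at the start of that match (25 tested) had a median of -0.46, with 16 lower and 3 higher. The 22 with it elsewhere in the coding part, sites further into the box included, had -0.53, with 16 lower and 0 higher. The 91 without it had -0.11, with 38 lower and 17 higher. The start of the KRAB match was therefore not the only place where the site went with lower levels. The 3 that were higher with a KRAB box site were ZNF761, ZNF765 and ZNF780A, and the 4th higher member with a coding site was ZNF146. For the KRAB genes of other chromosomes the medians were -0.54 (9 with the site at the start of the match), -0.43 (16 with it elsewhere) and 0.03 (57 without it). In genes other than ZNF genes the coding 7-mer went with a smaller difference, a median of -0.06 for 1453 genes against -0.01 for 11013 without it. The 32 tested members with the 7-mer in the 3′ UTR had a median of -0.10 and the 140 without it -0.24. Both groups include members with the coding site. The 23 with it in the 3′ UTR alone had a median of 0.02, and the 101 with it in neither part -0.09. In genes other than ZNF genes, the 1724 with the 7-mer in the 3′ UTR had a median of -0.18 and the 10742 without it 0.01.

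**Figure D4:**
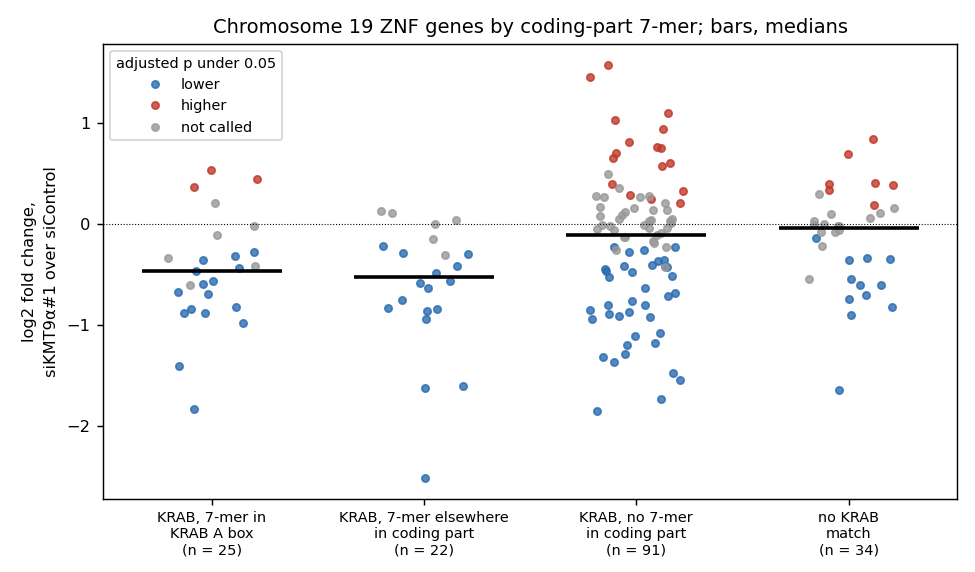
Log2 fold change of siKMT9α#1 over siControl (vertical axis) for tested members grouped by KRAB match and by the position of the 7-mer in the coding part, 1 point per gene coloured by call, with group medians as bars. The group with the 7-mer in the KRAB A box holds sites at the start of the pattern match alone. The medians are -0.46 and -0.53 in both groups with the 7-mer and -0.11 in KRAB genes without it.

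The site was unevenly spread along the chromosome. It occurred in 15 of the 22 tested members of cluster 14 and in 14 of the 23 of cluster 19. In cluster 19 the 14 genes with it showed a median log2 fold change of -0.60, with 10 lower and 2 higher, and the 9 without it had 0.01, with 0 lower and 1 higher. In cluster 14 the medians were -0.49 for the 15 with it and -0.61 for the 7 without it, so members there were lower either way. Outside these clusters the 19 genes with the site had a median of -0.30 and the 108 without it -0.09. Cluster 10, with the lowest median, had no tested member with the site. Members with the site had a longer coding part, 1887 bases at the median against 1709, and a higher level, 9.37 against 7.04 CPM. Whether siKMT9α#1 acted on these transcripts through the 7-mer was not tested, and the transcript counted for a gene can differ from the annotated one.

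A second feature lay in the promoters. RefSeq promoters of GRCh38.p14, from 250 bases before to 50 after the start, were found for 172 members. The ETS core motif CCGGAAGT, searched on both strands, occurred in 43 of them (25%) against 4.14% of all 35116 promoters in the table. Among tested genes with a promoter, the share was 27.7% of 155 members, 15.8% of 183 ZNF genes of other chromosomes and 8.69% of all 10944. ZNF143 motifs (ACTACAATT, both strands) occurred in 3 member promoters (1.74%) against 0.336% of all promoters and 2.19% of those of the tested ZNF genes of other chromosomes. The CpG count was 22 at the median of the members, 14 over all promoters and 26 over those of tested genes. The 43 members with the ETS motif were all tested and showed a median log2 fold change of -0.34, with 26 lower and 5 higher. The 112 tested members whose promoter lacked it had -0.11, with 46 lower and 21 higher. Among members without the coding 7-mer the medians were -0.25 for 34 with the motif and -0.04 for 79 without. Over all genes tested, the 951 with the motif had a median of -0.07 and the 9993 without it -0.01. The 29 ZNF genes of other chromosomes with the motif had -0.13 and the 154 without it 0.00. A match describes the sequence and does not show binding.

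The 3 genes with the motif among the 6 largest decreases, ZNF776, ZNF419 and ZNF132, all had it in reverse orientation and within 20 bases of the annotated start. The 100 bases before the start are shown for them, and for ZNF274, whose level did not pass the test, with the motif in capitals (RefSeq, GRCh38.p14, 5′ to 3′ on the gene's strand). They lie at chr19:57746715-57746814 (plus strand) for ZNF776, chr19:57487650-57487749 (plus strand) for ZNF419, chr19:58440154-58440253 (minus strand) for ZNF132 and chr19:58182961-58183060 (plus strand) for ZNF274. In the first 3 the motif begins 19, 18 and 15 bases before the start. ZNF274 holds 2 copies in the same orientation, 1 that begins 84 bases before the start and 1 that begins 8 bases after it, past the stretch shown, so the motif within 20 bases of the start also occurs in this gene.
ZNF776: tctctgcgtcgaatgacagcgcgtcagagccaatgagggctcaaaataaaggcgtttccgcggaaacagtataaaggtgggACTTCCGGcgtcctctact
ZNF419: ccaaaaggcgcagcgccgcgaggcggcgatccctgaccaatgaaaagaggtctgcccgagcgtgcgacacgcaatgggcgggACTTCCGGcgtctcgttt
ZNF132: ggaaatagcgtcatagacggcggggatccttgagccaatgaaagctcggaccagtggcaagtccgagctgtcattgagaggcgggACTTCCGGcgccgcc
ZNF274: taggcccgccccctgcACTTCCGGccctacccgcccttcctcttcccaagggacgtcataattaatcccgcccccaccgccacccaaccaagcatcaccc

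The genes through which KRAB zinc finger proteins silence chromatin moved in both directions. Of 30 corepressor and heterochromatin genes, all tested, 16 passed as higher and 9 as lower, with a median log2 fold change of 0.14. That is 53.3% higher and 30% lower, beside 37.1% and 38.5% of all genes tested. The split was 12 higher and 11 lower when scaled by library size alone, and 14 and 11 with GC and length offsets. TRIM28, the direct partner of the KRAB box and itself a chromosome 19 gene, was slightly lower, at 361 ± 12.5 CPM in siControl and 316 ± 8.10 CPM in siKMT9α#1 (SD, n = 3), with a log2 fold change of -0.19 (SE 0.05, edgeR adjusted p = 0.00100). SETDB1, the H3K9 methyltransferase of the complex, was higher, at 38.8 ± 1.73 and 53.8 ± 1.68 CPM (SD, n = 3), with a log2 fold change of 0.47 (SE 0.06, edgeR adjusted p = 4.92e-07), while its cofactor ATF7IP was lower at -0.50 (SE 0.06). The HP1 genes split. CBX5, which encodes HP1α, fell by 1.10 on the log2 scale (SE 0.05, edgeR adjusted p = 3.90e-13) and CBX3, for HP1γ, fell by 0.47 (SE 0.05), whereas CBX1, for HP1β, had a log2 fold change of 0.51 (SE 0.05).

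Of the NuRD deacetylase genes, HDAC1, HDAC2, CHD3, MTA1, MTA2 and RBBP4 were higher, with log2 fold changes from 0.15 to 0.65, and CHD4 and RBBP7 did not pass. SUMO2, whose product modifies TRIM28, was higher at 1.33 (SE 0.05). SUV39H1, another H3K9 methyltransferase, was higher at 1.11 (SE 0.08, edgeR adjusted p = 3.65e-10). MORC3 (-0.96, SE 0.08), UHRF1 (-0.74, SE 0.10) and ATRX (-0.38, SE 0.06) were lower. In the HUSH complex, which acts with SETDB1 on young retroelements, FAM208A was higher at 0.31 (SE 0.06), PPHLN1 lower at -0.18 (SE 0.06), and MPHOSPH8 did not pass.

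**Figure D5:**
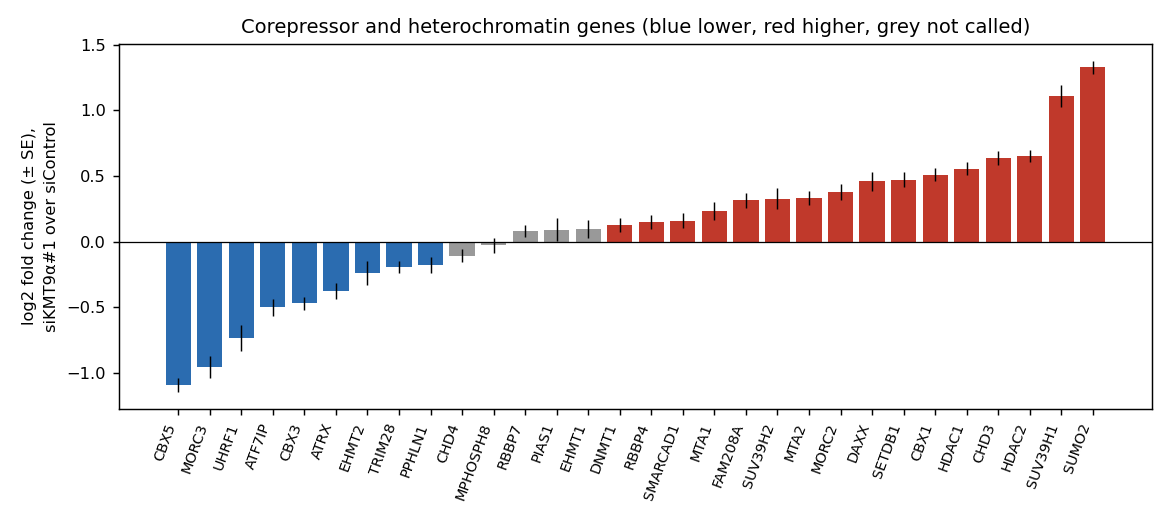
Log2 fold change of siKMT9α#1 over siControl with its standard error (vertical axis, bars from 0) for 30 corepressor and heterochromatin genes in order of their value, coloured by call. SUMO2 stands highest at 1.33 and CBX5 lowest at -1.10, and 16 genes are called higher and 9 lower.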

How the data were processed

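RNA-Seq of 6 A549 samples was used. Per the study's methods, alignment to hg19 used STAR 2.5 and counting used HOMER (analyzeRepeats). The authors deposited estimated counts of RefSeq transcripts, not normalized, of which 36.4% were not whole. The authors also deposited a fold ratio and p-values of their own comparison, which were not used. Of 38767 rows, 1182 without symbol and counts were left out. One transcript per symbol was kept, the one with the largest summed count, and counts were rounded. TMM, filterByExpr and the quasi-likelihood test of edgeR 4.0.16 (R 4.3.3) were run on 13877 genes, with the Benjamini-Hochberg adjustment. SE is the log2 fold change divided by the square root of F. A two-sided exact permutation test of 3 against 3 samples cannot go below 0.1. On simulated counts (13834 genes tested), the fit called 186 of 197 genes changed by 1 on the log2 scale, all in the right direction, and 13 unchanged genes. Replicates of 1 group differed by more than sampling noise. Sequence features came from GENCODE on GRCh37, with 1 transcript per gene, and all 194 members matched. The KRAB pattern first written found no match and was replaced by one chosen on protein letters alone. Promoters came from RefSeq. Named members were the 8 most abundant, the 6 largest changes in each direction (adjusted p under 0.05, groups apart, at least 1 CPM), the most abundant per cluster, and a list with known roles. Further members were named after their values were seen, such as ZNF761, ZNF765, ZNF480 and the genes that delimit stretches. One further corepressor gene was left out of the list and is not reported here. The members and lists were chosen with earlier results of these data known. Alternatives were DESeq2 1.42.0, the likelihood-ratio test, library size alone, RLE factors, other filters, every transcript, a replicate block, GC and length offsets, each sample left out and, chosen after seeing the data, doubled counts and subsets of members by the position of the 7-mer, level and shared sequence.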

Additional observations from a re-analysis of the deposited data

How the results depend on the processing

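At an adjusted p under 0.05 the counts of chromosome 19 zinc finger genes stayed within 1.5 times the reported 27 higher and 83 lower in every alternative, with 26 to 28 higher and 74 to 80 lower when 1 sample was left out and 25 and 65 with DESeq2. The counts at the study's threshold, 2 higher and 14 lower, were less stable: 8 and 33 with the likelihood-ratio test, 8 and 36 without a filter on low counts, 4 and 22 with DESeq2, 23 lower with GC and length offsets, and 1 to 4 higher and 6 to 20 lower with 1 sample left out. The median log2 fold change of the members was -0.34 with library size alone (all genes -0.12), -0.21 with doubled counts, and -0.26 to -0.21 with 1 sample left out. The difference in medians between members with and without the coding 7-mer, -0.40, was -0.36 with at least 10 counts in every sample, -0.43 with GC and length offsets, and -0.44 to -0.37 with 1 sample left out. The cause of these shifts was not tested. Samples that share a replicate number did not deviate together, with correlations of -0.12, 0.04 and -0.11, so the numbers were not taken as pairs. With the replicate number as a block, 27 members were higher and 82 lower, and 1 and 6 passed the study's threshold. With the block together with GC and length offsets, 9 higher and 37 lower passed it and the difference for the 7-mer was -0.44. Of 32 named members tested, 6 changed their call in at least 1 alternative and none reversed. ZNF350 passed at -0.22 (adjusted p = 0.0300, edgeR) with library size alone and ZNF304 at -0.21 (adjusted p = 0.0451, edgeR) with GC and length offsets. Depth limits the 21 untested members, which had at most 57.5 counts.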

Other observations

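Other zinc finger families of chromosome 19 also moved in both directions. A search for ZFP, ZSCAN and ZIM symbols, with ZFP36 left out, gave 7 tested genes, all of them ZFP or ZSCAN genes. Of these, 4 were lower and 2 higher at an adjusted p under 0.05 (edgeR), with a median log2 fold change of -0.27. That is 57.1% lower and 28.6% higher, beside 38.5% and 37.1% of all genes tested. ZSCAN18 went from 6.75 ± 0.370 to 3.07 ± 0.183 CPM (SD, n = 3), with a log2 fold change of -1.13 (SE 0.13), and ZFP82 from 9.62 ± 1.12 to 4.85 ± 0.309 CPM (SD, n = 3), with -0.97 (SE 0.12). ZSCAN5A, at 0.538 ± 0.0828 and 1.68 ± 0.409 CPM (SD, n = 3), and ZSCAN22, at 10.7 ± 0.371 and 15.8 ± 0.949 CPM (SD, n = 3), were higher.

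Transposable elements, the known targets of KRAB zinc finger proteins, are not counted as families in the table. A search for symbols that begin with ERV gave 6 genes named after endogenous retroviruses, and other genes of such origin were not searched for. ERV3-1 had 2.89, 2.44 and 2.42 CPM in siControl and 4.42, 6.39 and 5.88 CPM in siKMT9α#1, a log2 fold change of 1.11 (SE 0.17, edgeR adjusted p = 5.45e-06). ERVK13-1 had 2.87, 3.40 and 3.35 CPM and then 3.89, 4.13 and 5.44 CPM, a log2 fold change of 0.52 (SE 0.16, edgeR adjusted p = 0.00703). Both were higher in every siKMT9α#1 sample than in any siControl sample. Over all genes tested, 37.1% were called higher, so single rises like these are common. ERVMER34-1 did not pass the test, with 1.55 ± 0.163 and 1.78 ± 0.0349 CPM (SD, n = 3), and ERVV-1, ERVV-2 and ERVFRD-1 had 0.5 to 3 counts in all. These genes were chosen after the main results were known.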
